A study of Mus musculus with 20 samples.

Results

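Csta3, Stfa1, Stfa3, S100a8, S100a9, Defb14, Lcn2 and Slpi were followed in endothelial cells sorted from mouse ears, over 4 groups of arrays that differ in genotype and in skin treatment. Each of these 8 genes had exactly 1 probe set annotated with its symbol alone, out of 23521 probe sets with a single symbol, so the rule of taking the brightest of several was never needed. All 8 were among the 14178 genes tested. The genes were chosen by symbol, with the DNFB differences of these arrays already known, in which Csta3 and S100a8 were among the large rises with DNFB. Their DNFB differences are therefore a description, and the p-values printed with them are not independent evidence of a rise. In ears painted with vehicle 6 of the 8 averaged within the background of the array, 24 hours after DNFB all 8 were higher in both genotypes, and in DNFB ears 5 of the 8 were lower in NICD arrays than in control arrays, where 35.1% of all probe sets tested were. Of these 5, Slpi alone passed as lower after the arrays were centred on their medians, and Slpi alone passed without NICD DNFB replicate 1.

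Stefins are small cytoplasmic inhibitors of cysteine cathepsins. In the mouse the stefin A genes form a run of tandem copies and are known from neutrophils and from the upper epidermis. S100a8 and S100a9 encode the calgranulins, calcium-binding partners that form calprotectin, bind zinc and manganese and act on Tlr4. They are abundant in neutrophils and appear in keratinocytes of inflamed skin. Defb14 is an epithelial beta-defensin that kills bacteria and attracts cells bearing Ccr6. Lcn2 (lipocalin) withholds iron from bacteria by binding their siderophores, and Slpi inhibits neutrophil elastase and cathepsin G.

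Cells were sorted as CD31+CD45-Ter119- from ears digested with collagenase I. All mice, controls included, received 5 daily tamoxifen injections. Skin was sensitised with DNFB (a hapten that elicits contact hypersensitivity) on days 0 and 1, the ear was challenged on day 5, and tissue was taken 24 hours later. Each treatment, vehicle or DNFB, had 6 arrays from control mice and 4 from NICD mice. NICD stands for the NICD1-EC-OE mice, which express an active Notch1 intracellular domain from Rosa after Cre recombination. The genotype label names the driver Pdgfb-CreERT2, whereas the growth protocol names CDH5-iCre. Controls carry no further genotype label, and neither age nor pooling is given. The title of NICD vehicle replicate 4 calls it vehicle-treated, whereas its description speaks of DNFB. The title was followed here, and without this array all counts of members past the threshold given here were the same (8, 8, 5, 0 and 0 in the 5 comparisons). The labels do not say whether arrays of a group came from separate mice, so p-values measure the spread between these arrays, which may be technical.

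Values are log2 expression per probe set, and differences are log2 units ± 1 SE from limma. Adjusted p-values are Benjamini-Hochberg values over 14886 probe sets, with a threshold of 0.05. Background was read from 1405 probe sets for olfactory and vomeronasal receptors, genes of the nose. The 95th percentile of their group means was 3.90 in both control groups, 3.47 in NICD vehicle and 3.48 in NICD DNFB. A group mean under that value is called at background, and a rise from it is given as a lower bound. The endothelial markers Pecam1 (means of 11.48 to 11.72) and Cdh5 (11.77 to 12.01) were high in all 4 groups. Control and NICD arrays differed in more than genotype: Xist was 2.27 to 3.16 in control and 8.47 to 9.07 in NICD arrays, and array medians were 3.87 to 3.98 against 3.52 to 3.62. Comparisons of genotype therefore cannot be told apart from sex or array set. For the members, their calls are given with and without centring the arrays on their medians. For all other genes they are given without centring only. Notch1 itself averaged 9.71 to 9.82 over the 4 groups, and its probe set is not stated to cover the transgene.

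The stefin promoters are shown because the 3 stefins are tandem relatives that all rose with DNFB. Those of S100a8 and S100a9 are shown because these partners both rose too. Sequences are RefSeq windows of GRCm38.p6, from 250 bases before to 50 after each start, 5′ to 3′ on the strand of the gene. Of the 8 genes 7 had an entry; Defb14 is named only. Capitals mark the letters searched for on both strands, TTGCNNAA (C/EBP), the kappaB letters, TTCNNNGAA (STAT) and TGANTCA (AP-1), and TATAAA on the gene's strand.
Csta3, chr16:36210153-36210452, plus strand: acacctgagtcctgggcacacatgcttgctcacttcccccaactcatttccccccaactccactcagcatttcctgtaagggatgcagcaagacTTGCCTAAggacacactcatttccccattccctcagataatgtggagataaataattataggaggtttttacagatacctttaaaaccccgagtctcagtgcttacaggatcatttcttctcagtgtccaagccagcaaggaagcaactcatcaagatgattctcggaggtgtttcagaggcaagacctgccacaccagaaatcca
Stfa1, chr16:36276898-36277197, plus strand: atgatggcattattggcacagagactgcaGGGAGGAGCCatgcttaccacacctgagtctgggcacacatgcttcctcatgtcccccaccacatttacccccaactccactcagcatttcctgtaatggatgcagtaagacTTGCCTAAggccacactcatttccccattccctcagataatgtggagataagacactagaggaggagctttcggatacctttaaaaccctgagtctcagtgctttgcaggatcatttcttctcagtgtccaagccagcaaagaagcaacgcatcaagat
Stfa3, chr16:36455343-36455642, minus strand: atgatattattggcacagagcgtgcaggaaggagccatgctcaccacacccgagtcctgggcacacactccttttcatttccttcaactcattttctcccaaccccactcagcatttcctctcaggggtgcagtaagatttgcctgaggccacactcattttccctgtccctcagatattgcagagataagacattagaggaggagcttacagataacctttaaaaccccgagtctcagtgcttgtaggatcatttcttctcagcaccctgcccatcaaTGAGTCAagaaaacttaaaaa
S100a8, chr3:90668821-90669120, plus strand: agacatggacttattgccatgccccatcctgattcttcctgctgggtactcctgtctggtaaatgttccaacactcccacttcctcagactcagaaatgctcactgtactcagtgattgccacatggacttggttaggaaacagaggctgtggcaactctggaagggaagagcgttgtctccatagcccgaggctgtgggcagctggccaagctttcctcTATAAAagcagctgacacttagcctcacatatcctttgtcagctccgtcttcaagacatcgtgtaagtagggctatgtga
S100a9, chr3:90695672-90695971, minus strand: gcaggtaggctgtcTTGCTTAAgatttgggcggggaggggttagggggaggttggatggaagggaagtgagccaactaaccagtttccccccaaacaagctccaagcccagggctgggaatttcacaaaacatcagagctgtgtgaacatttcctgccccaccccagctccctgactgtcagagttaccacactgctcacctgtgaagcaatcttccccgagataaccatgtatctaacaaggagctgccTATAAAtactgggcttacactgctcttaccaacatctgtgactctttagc

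Over the aligned windows Stfa1 and Stfa3 were identical in 80.6% of columns, Csta3 and Stfa1 in 65.3%, and Csta3 and Stfa3 in 60.7%. S100a8 and S100a9 shared 46.7%, within the 42.8% to 49.2% found between the promoters of unrelated members. The C/EBP letters were present in 5 of 7 promoters (Csta3, Stfa1, S100a9, Lcn2 and Slpi), against 10.8% of 32817 RefSeq promoters of this length. They began 156 bases before the start in Csta3, 109 in Stfa1, 236 in S100a9, 216 in Lcn2 and 241 in Slpi. Csta3 and Stfa1, tandem relatives, have the same TTGCCTAA within like surrounding letters, so their matches are not independent. The kappaB letters were in 2 of 7 (Stfa1 and Lcn2) against 50.8% of all promoters, the AP-1 letters in 1 (Stfa3) against 7.81%, the STAT letters in 0 against 8.29%, and TATAAA in 2 (S100a8 and S100a9) against 8.32%. A match says only that the letters are in the window.

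Among the stefins, Csta3 had a lowest value of 2.42, a median of 2.65 and a highest of 3.92 in control vehicle ears, and 8.21, 9.15 and 9.87 in control DNFB ears. In NICD arrays it was 2.67, 3.78, 3.17 and 3.95 with vehicle and 7.62, 8.06, 8.49 and 7.73 with DNFB. The DNFB arrays lay above all vehicle arrays in both genotypes. Csta3 rose by at least 6.10 ± 0.31 in control mice (limma adjusted p 1.99e-11) and by at least 4.58 ± 0.37 in NICD mice (limma adjusted p 1.36e-08). In a bulk sort, more cells of a type that contains a transcript and more transcript per cell cannot be told apart, and this holds for every rise below.

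Stfa1 was the most scattered of the 8 at rest. Its control vehicle values had a lowest of 1.53, a median of 3.28 and a highest of 4.43, and control DNFB values had 8.08, 9.07 and 10.64. NICD vehicle arrays read 3.32, 2.70, 3.04 and 4.63, and NICD DNFB arrays 7.0, 7.27, 8.16 and 8.15. The treatments did not overlap in either genotype. The rise was at least 6.04 ± 0.49 in control mice (limma adjusted p 3.86e-09) and at least 4.22 ± 0.60 in NICD mice (limma adjusted p 1.04e-05).

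Stfa3 was tight at rest in control vehicle ears, with a lowest value of 2.46, a median of 2.83 and a highest of 3.25. Control DNFB arrays spread wider, with 6.99, 8.09 and 9.5. NICD vehicle arrays were at 3.39, 3.02, 2.66 and 3.71, and NICD DNFB arrays at 6.69, 7.18, 7.31 and 7.15. DNFB and vehicle arrays were separate in both genotypes. Stfa3 rose by at least 5.38 ± 0.32 in control mice (limma adjusted p 1.03e-10) and by at least 3.89 ± 0.40 in NICD mice (limma adjusted p 2.09e-07).

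**Figure D1:**
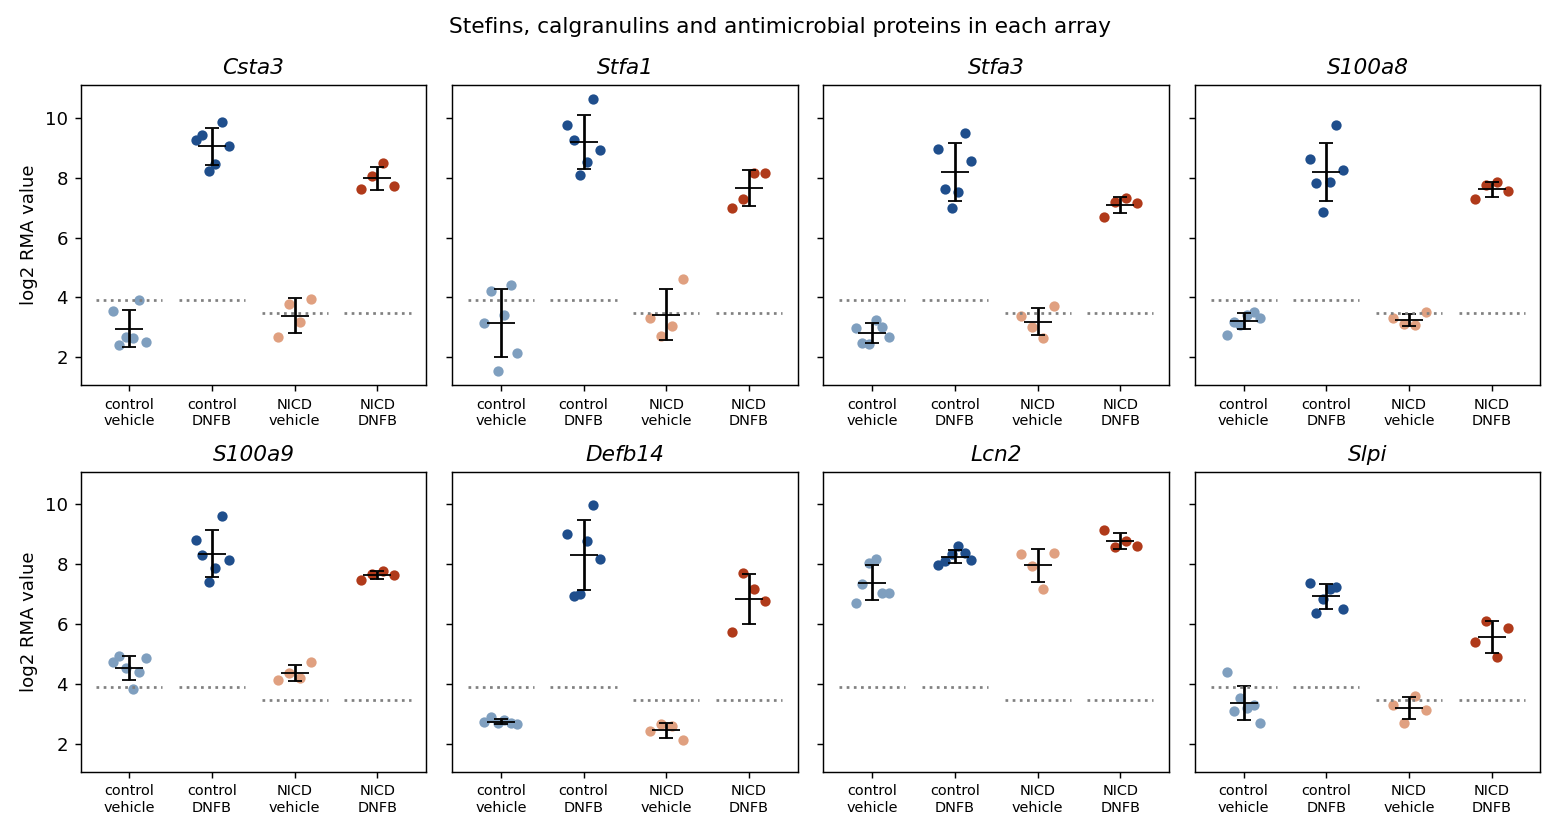
Log2 expression (y axis) of the 8 genes in each of the 20 arrays, by group on the x axis. Points are arrays, black bars are mean ± SD, and dotted lines are the 95th percentile of nose receptor probe sets in that group. Lcn2 alone is well above the dotted line in vehicle ears and has overlapping control groups; S100a9 averages 4.55 and 4.36 there, and the other 6 average below the line.

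S100a8 was at background with vehicle and as separate between treatments as the stefins. In control vehicle arrays it had a lowest value of 2.74, a median of 3.25 and a highest of 3.5, and in control DNFB arrays 6.85, 8.05 and 9.75. NICD vehicle arrays read 3.32, 3.10, 3.07 and 3.5, and NICD DNFB arrays 7.29, 7.74, 7.86 and 7.56, a narrow band inside the control DNFB range. The rise was at least 4.99 ± 0.30 in control mice (limma adjusted p 1.21e-10) and at least 4.37 ± 0.37 in NICD mice (limma adjusted p 2.33e-08).

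Its partner S100a9 was above background at rest, so its rise is measured on both sides. Control vehicle values had a lowest of 3.83, a median of 4.63 and a highest of 4.93, and control DNFB values had 7.4, 8.22 and 9.63. NICD vehicle arrays were at 4.13, 4.37, 4.20 and 4.73, and NICD DNFB arrays at 7.47, 7.68, 7.79 and 7.64. Treatments did not overlap in either genotype. S100a9 rose by 3.81 ± 0.27 in control mice, 14-fold (limma adjusted p 6.70e-10), and by 3.29 ± 0.33 in NICD mice, 9.78-fold (limma adjusted p 1.66e-07).

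Defb14 had the narrowest resting values and the widest DNFB values of the 8 in control mice. With vehicle it had a lowest value of 2.66, a median of 2.72 and a highest of 2.91, and with DNFB 6.96, 8.48 and 9.97. NICD vehicle arrays read 2.43, 2.67, 2.59 and 2.13, and NICD DNFB arrays 5.74, 7.70, 7.19 and 6.79. It thus went from background in all 10 vehicle arrays to well above it in all 10 DNFB arrays. The rise was at least 5.57 ± 0.40 in control mice (limma adjusted p 7.52e-10) and at least 4.40 ± 0.49 in NICD mice (limma adjusted p 5.65e-07).

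Slpi rose less. Control vehicle arrays had a lowest value of 2.70, a median of 3.25 and a highest of 4.40, and control DNFB arrays 6.39, 7.03 and 7.39. NICD vehicle arrays were at 3.31, 2.72, 3.59 and 3.15, and NICD DNFB arrays at 5.40, 6.12, 4.90 and 5.87. The rise was at least 3.55 ± 0.26 in control mice (limma adjusted p 9.68e-10) and at least 2.38 ± 0.32 in NICD mice (limma adjusted p 5.48e-06). Slpi was the single member whose NICD DNFB and control DNFB arrays did not overlap.

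Lcn2 differed in kind from the other 7, because it was already high at rest. Control vehicle values had a lowest of 6.71, a median of 7.20 and a highest of 8.19, and control DNFB values had 7.98, 8.26 and 8.60, so that these groups overlapped. NICD vehicle arrays read 8.34, 7.96, 7.19 and 8.39, and NICD DNFB arrays 9.16, 8.58, 8.77 and 8.62. Lcn2 rose by 0.87 ± 0.24 in control mice, 1.83-fold (limma adjusted p 0.00469), and by 0.82 ± 0.29 in NICD mice, 1.76-fold (limma adjusted p 0.0315). The NICD rise lost its call when vehicle replicate 2 or 3, or DNFB replicate 1 or 3, of the NICD mice was left out (adjusted p 0.0558 to 0.138), nor after quantile normalization (0.0616).

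In all, 8 of 8 members passed as higher with DNFB in control mice, where 23.7% of all probe sets tested were higher and 23.6% lower, and 8 of 8 in NICD mice, where 20% were higher and 18.1% lower. All 8 passed the filter on dim probe sets, 6 of them with 10 to 13 of the 20 arrays above the array median, so mainly through their DNFB arrays. Since the members were also chosen with rises known, nothing is read from these counts. DNFB arrays lay wholly above vehicle arrays for 7 members in control mice (13.6% of all probe sets) and for 8 in NICD mice (19.9%). The median member difference was 5.18 in control and 4.06 in NICD mice, against 0 and 0.01 over all probe sets.

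Between genotypes in DNFB ears, the stefins, Defb14 and Slpi were lower in NICD arrays, whereas the calgranulins and Lcn2 did not pass. Csta3 fell by 1.07 ± 0.34 relative to control (limma adjusted p 0.0177), Stfa1 by 1.55 ± 0.54 (0.0293), Stfa3 by 1.11 ± 0.36 (0.0202) and Defb14 by 1.46 ± 0.44 (0.0136). Slpi was lower by the widest margin of its error, with a difference of -1.36 ± 0.29 (limma adjusted p 0.00123). S100a8 differed by -0.58 ± 0.34 (limma adjusted p 0.182), S100a9 by -0.71 ± 0.30 (0.0644) and Lcn2 by 0.52 ± 0.26 (0.121). Thus 5 of 8 passed as lower, where 35.1% of all probe sets did, and the median member difference was -1.09 against -0.27 over all. NICD and control arrays lay apart for 1 member, against 21.7% of all probe sets lower without overlap.

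Centring each array on its median took away most of these calls. Over all probe sets it turned a split of 5.45% higher and 35.1% lower into 20.7% higher and 8.12% lower, with a shift of -0.372 in the median difference between the settings. Of the members, 1 then passed as lower, Slpi (-0.99, adjusted p 0.0123). Lcn2 passed as higher after centring in DNFB ears (0.89, adjusted p 0.0188) and in vehicle ears (0.90, adjusted p 0.0269), where 11.9% of all probe sets passed as higher after centring. The stefin, Defb14 and calgranulin differences in DNFB ears were -0.70 for Csta3, -1.17 for Stfa1, -0.74 for Stfa3, -1.09 for Defb14, -0.20 for S100a8 and -0.34 for S100a9 after centring, with adjusted p from 0.0726 to 0.696. The count of 5 also rested on NICD DNFB replicate 1, without which only Slpi passed. The differences without that array were -0.95 ± 0.38 for Csta3 (limma adjusted p 0.0574), -1.33 ± 0.60 for Stfa1 (0.0903), -0.98 ± 0.40 for Stfa3 (0.0647) and -1.09 ± 0.45 for Defb14 (0.0682). Replicate 1 was the lowest NICD DNFB array for 6 of the 8 members and the highest for Lcn2.

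**Figure D2:**
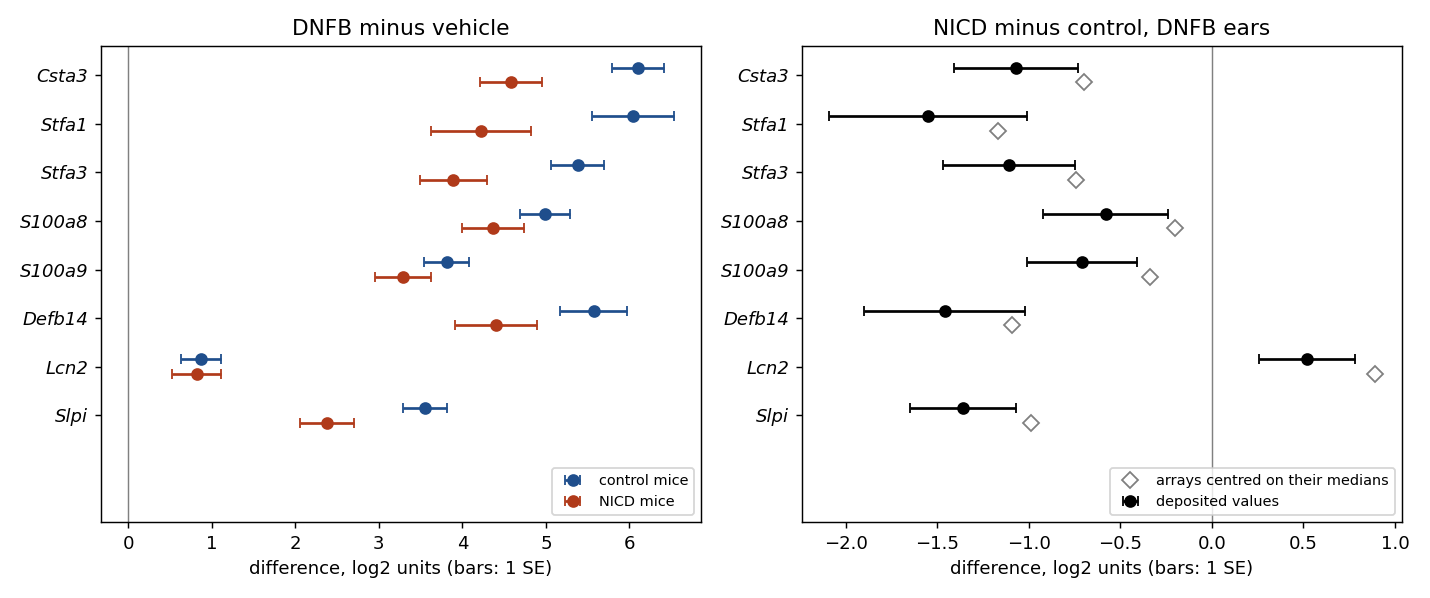
Differences in log2 units (x axis) for the 8 genes (y axis); bars are 1 SE. Left, DNFB minus vehicle in control and NICD mice. Right, NICD minus control in DNFB ears from the deposited values and, as diamonds, after centring each array on its median. Lcn2 is the only gene to the right of 0 in the right panel, at 0.52 and 0.89.

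In vehicle ears 0 of 8 members passed between genotypes by limma, with 1 at an unadjusted p under 0.05 (Lcn2, 0.57 ± 0.26, limma adjusted p 0.0947). Over all probe sets 35.9% passed. With 6 of the members at background in both vehicle groups, differences there say little about their levels. The difference of the DNFB effects, NICD minus control, was negative for all 8 and passed for 0 by limma, where 0.0134% of all probe sets passed; 4 members had an unadjusted p under 0.05. It was -1.51 ± 0.48 for Csta3 (limma adjusted p 0.273), -1.82 ± 0.77 for Stfa1 (0.403), -1.49 ± 0.51 for Stfa3 (0.301), -1.18 ± 0.41 for Slpi (0.302) and -1.16 ± 0.63 for Defb14 (0.537). For S100a8 it was -0.62 ± 0.48 (limma adjusted p 0.682), for S100a9 -0.52 ± 0.42 (0.704) and for Lcn2 -0.05 ± 0.37 (0.976). For the 6 genes that start at background this compares lower bounds taken on array sets with different floors.

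The order of the arrays within a DNFB group was much the same for several members. Among control DNFB arrays, replicate 5 was the highest for 6 of the 8 members and replicate 1 the second highest for 5. Replicate 3 was the lowest for 5. The exceptions at the top were Lcn2, highest in replicate 4, and Slpi, highest in replicate 1. Keratinocyte markers had a like order in these arrays. Their mean over 21 genes (of 22 listed) was 7.95 in replicate 5 and 7.17 in replicate 1, and it was lowest, at 6.31, in replicate 3. Neutrophil markers, 19 of 20 listed, averaged 5.18 in replicate 1, 5.08 in replicate 5 and 4.47 in replicate 3. The order was not particular to these lists. Fibroblast markers were also highest in replicate 5 (7.71) and lowest in replicate 3 (6.87). Macrophage and dendritic markers were highest in replicate 5 (5.10) but lowest in replicate 1 (4.18). Endothelial markers ran the other way, with 9.47 in replicate 1, 9.53 in replicate 5 and 9.90 in replicate 3. Without control DNFB replicate 5 all 8 members still passed as higher with DNFB in control mice, and without replicate 3 all 8 did too. Among NICD DNFB arrays, replicate 3 was the highest for 5 of the 8 members and replicate 1 the lowest for 6. Keratinocyte markers there were lowest in replicate 1 (6.48) and highest in replicate 2 (6.93), with 6.89 in replicate 3. Neutrophil and fibroblast markers did not follow, and were lowest in replicate 3 (4.35 and 5.79).

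Across groups, the mean of the keratinocyte markers was 5.26 to 6.26 in control vehicle, 6.31 to 7.95 in control DNFB, 5.58 to 6.19 in NICD vehicle and 6.48 to 6.93 in NICD DNFB arrays. Of 19 tested, 8 rose and 2 fell with DNFB in control mice, against 23.7% and 23.6% of all probe sets. In NICD mice 6 rose and 1 fell, against 20% and 18.1%. In control vehicle ears 4 of the 19 were at background (Krt6a, Krt6b, Krt16 and Sprr1b). These passed the filter mainly through their DNFB arrays, so nothing is read from the counts. Krt16 (by at least 5.93 ± 0.42), Krt6a (by at least 4.82 ± 0.48) and Krt17 (by 3.61 ± 0.54), keratins of wounded and inflamed epidermis, and the cornified envelope gene Sprr1a (by 4.64 ± 0.35) led the rises. The lineage keratins were present without DNFB: Krt14 averaged 11.08 and Krt10 10.19 in control vehicle ears, and with DNFB Krt14 rose by 0.56 ± 0.19 and Krt10 fell by 0.61 ± 0.23 in control mice. Krt15, a keratin of basal cells, fell by 2.03 ± 0.26 in control mice (limma adjusted p 2.01e-06) and fell by 1.79 ± 0.32 in NICD mice. The part of keratinocyte RNA in the rises of the 8 genes was not tested.

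Neutrophil markers averaged 3.41 to 3.68 in control vehicle, 4.47 to 5.18 in control DNFB, 3.30 to 3.43 in NICD vehicle and 4.35 to 4.87 in NICD DNFB arrays. Of 13 tested, 12 passed as higher in control mice and 12 in NICD mice, against 23.7% and 20% of all probe sets. In control vehicle ears 9 of the 13 were at background, so these passed the filter mainly through their DNFB arrays, and nothing is read from the counts. The lectin receptors Clec4e (by 3.17 ± 0.31) and Clec4d (by at least 2.92 ± 0.27), the formyl peptide receptor Fpr2 (by at least 2.67 ± 0.31) and the chemokine receptor Cxcr2 (by at least 2.48 ± 0.28) led in control mice. Csf3r rose by at least 1.05 ± 0.19 and Ptprc, which encodes the CD45 excluded in the sort, by at least 1.21 ± 0.26. Ly6g was at background in all 4 groups (means of 2.83 to 3.51), as were Mpo, Elane, Camp, Ngp and Ltf, granule genes of immature neutrophils. The part of neutrophil RNA in the rises was not tested. Between genotypes in DNFB ears 1 of the 13 neutrophil markers and 4 of the 19 keratinocyte markers passed, all lower in NICD arrays, against 35.1% of all probe sets. Of 7 fibroblast markers 4 were lower (median of the list -0.69, Pdgfra -1.61 ± 0.27, limma adjusted p 0.000177). These marker comparisons were read without centring only, and after centring 8.12% of all probe sets passed as lower.

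**Figure D3:**
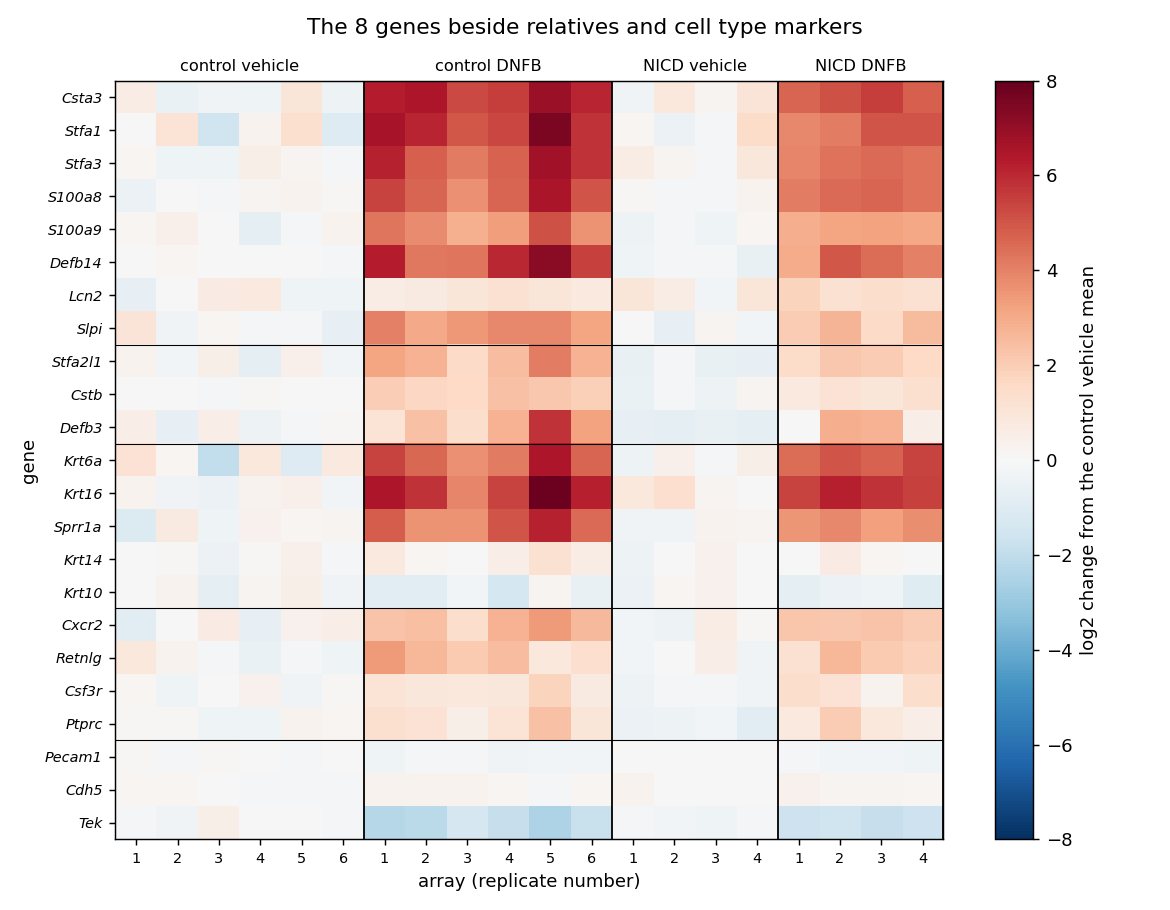
Log2 change from the control vehicle mean (colour) of the 8 genes, 3 relatives and 12 markers of keratinocytes, neutrophils and endothelium (rows) in the 20 arrays (columns, by group and replicate number). Among control DNFB arrays, replicate 5 is highest for most members, for Krt6a, Krt16 and Sprr1a, and also for Cxcr2, Csf3r and Ptprc. It is lowest for Retnlg. Pecam1 and Cdh5 stay near 0, whereas Tek falls in the DNFB arrays of both genotypes.

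Other lists behaved as follows in control mice, where 23.7% of all probe sets tested rose and 23.6% fell. Of 12 endothelial markers 10 fell and 0 rose (Tek fell by 1.97 ± 0.16, Cldn5 fell by 1.35 ± 0.17). Of 9 macrophage and dendritic markers 3 rose and 0 fell (Cd68 by 1.13 ± 0.21), and of 7 fibroblast markers 3 rose and 0 fell (Lum by 2.09 ± 0.26). In control vehicle ears 4 of the 9 macrophage and dendritic markers were at background, the risers Lyz2 and C1qa among them. Nothing is read from the counts of that list. None of 8 erythroid genes listed had a probe set with a single symbol, and they were not read.

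The stefin A run on chromosome 16 was then read as a whole. RefSeq lists 11 stefin or cystatin genes from Csta1 to Stfa3, and the array has 12 probe sets for them with a single symbol. Of these, 6 passed the filter. All 6 were at background in control vehicle ears and so passed mainly through their DNFB arrays, and 3 of them are the members, so nothing is read from the fact that the 6 rose in control mice. The other 3 were Stfa2l1 (from a mean of 3.18 to 5.98, by at least 2.80 ± 0.30, limma adjusted p 1.99e-07), Cstdc4 (from 1.86 to 4.54, by at least 2.68 ± 0.41, limma adjusted p 1.73e-05) and Cstdc6 (from 3.79 to 5.48, by at least 1.69 ± 0.33, limma adjusted p 0.000258). The other 6 probe sets, of Csta1, Csta2, Cstdc3, Cstdc5 and Stfa2, stayed at background in all 4 groups. In NICD mice Stfa2l1 rose by at least 2.30 ± 0.37 and Cstdc4 passed (1.42 ± 0.50, limma adjusted p 0.0306) with both group means at background, whereas Cstdc6 did not pass (0.46 ± 0.40, limma adjusted p 0.405). Tandem copies can share probes, so the division of signal between Csta3, Stfa1 and Stfa3 is uncertain. The relatives Cstdc3 to Cstdc6 were added after their current names were found.

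Elsewhere in the cystatin family, the widely expressed stefin B gene Cstb rose by 1.94 ± 0.14 in control mice (limma adjusted p 6.33e-10), from 8.30 to 10.24, and by 1.24 ± 0.17 in NICD mice. The secreted cystatin C gene Cst3 went the other way and fell by 1.02 ± 0.11 in control mice and fell by 1.15 ± 0.13 in NICD mice. The stefin and cystatin list, which does not count Cstdc4 and Cstdc6, had 5 genes tested, of which 2 rose (Stfa2l1 and Cstb) and 1 fell (Cst3) in each genotype. Of 10 S100 genes tested outside the members, 3 rose and 3 fell in control mice and 1 rose and 1 fell in NICD mice. Of all probe sets 23.7% rose and 23.6% fell in control mice, and 20% and 18.1% in NICD mice. Nothing is read from the S100 counts, which are near or below these shares. S100a14, an epithelial gene, had the largest rise of these 10 in control mice (1.28 ± 0.27). S100a4 fell by 0.68 ± 0.11, S100a1 fell by 0.69 ± 0.12, and S100a11 rose by 0.48 ± 0.14.

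Of 11 other antimicrobial protein genes, 8 rose and 1 fell in control mice, against 23.7% and 23.6% of all probe sets. In NICD mice 3 rose, against 20%. In control vehicle ears 6 of the 11 were at background, so their direction was largely set by the filter. The inducible epithelial defensin Defb3 rose by at least 2.78 ± 0.61 in control mice (limma adjusted p 0.000816), Chil3 by at least 1.21 ± 0.39, the lysozyme gene Lyz2 by at least 1.06 ± 0.24 and Defb4 by at least 0.93 ± 0.28. Pglyrp1, a peptidoglycan recognition protein, fell by 0.67 ± 0.25.

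**Figure D4:**
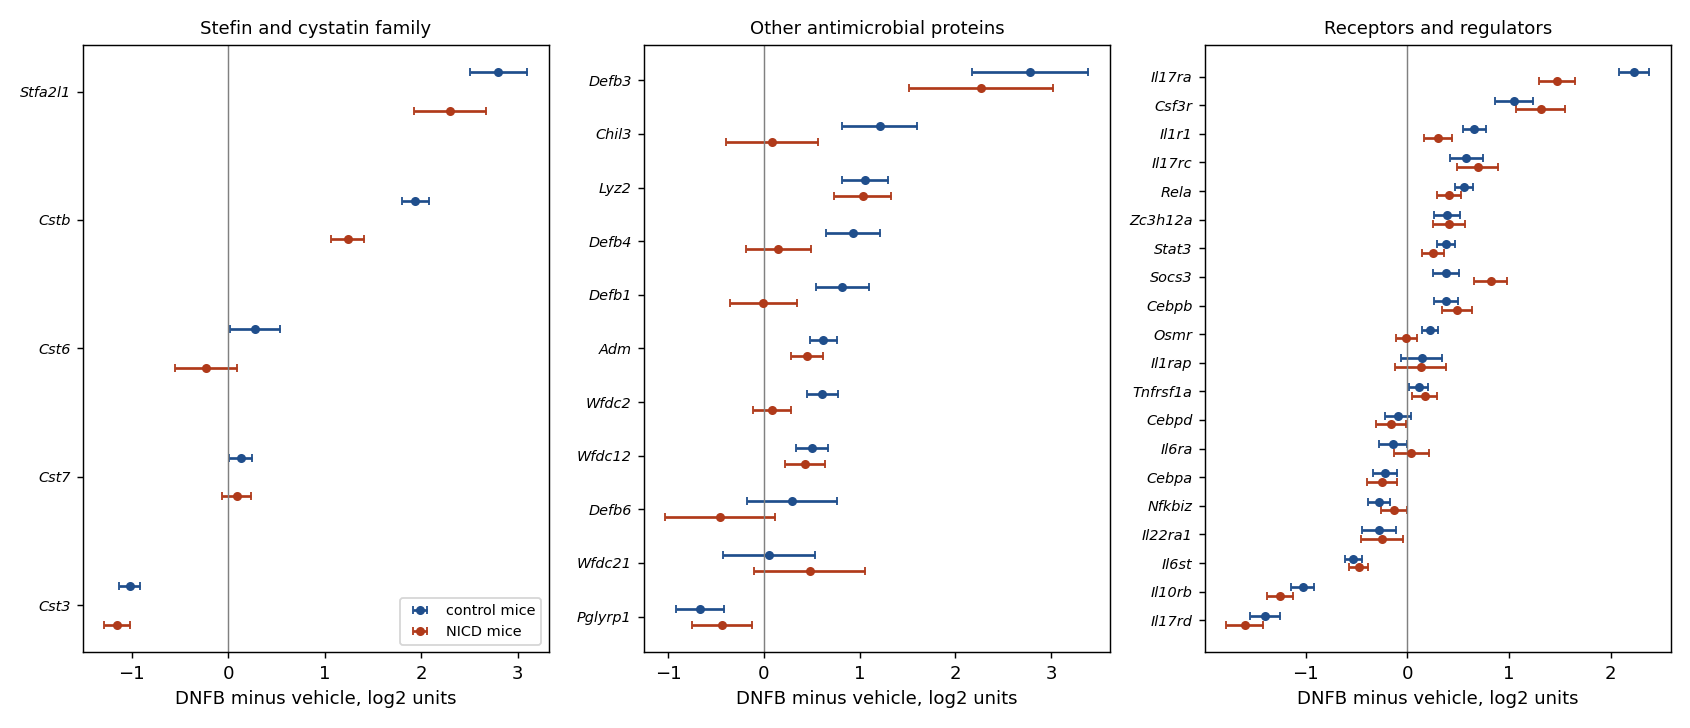
DNFB minus vehicle in log2 units (x axis) for tested relatives of the 8 genes (y axis), in control and NICD mice; bars are 1 SE. Stfa2l1, Cstb and Defb3 rise in both genotypes, Cst3 falls, and Il17ra leads the receptors and regulators.

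The proteases that these inhibitors act on, and the receptors of the secreted members, were read next. For comparison, 23.7% of all probe sets rose and 23.6% fell in control mice, and 20% and 18.1% did in NICD mice. Of 9 protease genes tested, 1 rose (Ctsk, by 0.68 ± 0.17) and 1 fell (Ctsc fell by 0.72 ± 0.11) in control mice. In NICD mice 3 rose and 2 fell, among them Ctss (by 2.06 ± 0.52, limma adjusted p 0.00374), Klk7 (by 1.70 ± 0.64, limma adjusted p 0.0418) and Ctsl (fell by 0.64 ± 0.13). The difference of the DNFB effects passed for 0 of the 9 (Ctss 1.19 ± 0.68, limma adjusted p 0.558). Elane, Ctsg and Prtn3, serine proteases of neutrophil granules, were at background in all 4 groups. Among 8 receptor genes tested, 3 passed as higher and 2 as lower in each genotype. Cd14 (by 1.83 ± 0.15) and Ly96 (by 1.05 ± 0.22), partners of Tlr4, rose in control mice, and Cd69 passed with both group means at background. Tlr4 itself differed by -0.03 ± 0.12 in control mice (limma adjusted p 0.867) and rose by 0.53 ± 0.15 in NICD mice (limma adjusted p 0.00849). The difference of its DNFB effects did not pass (0.55 ± 0.19, limma adjusted p 0.312). Without centring, Tlr4 averaged 5.03 in control and 4.38 in NICD arrays with vehicle, and 5.01 and 4.91 with DNFB. The lipocalin receptor Slc22a17 fell by 0.71 ± 0.16, and Ccr6 and Lrp2 were at background in every group.

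Cytokine receptors and regulators of pathways that induce these genes in epithelium, inhibitory ones such as Il17rd included, were largely expressed in all groups. Of 20 tested, 10 rose and 4 fell in control mice, against 23.7% and 23.6% of all probe sets. In NICD mice 7 rose and 3 fell, against 20% and 18.1%. Il17ra, a receptor subunit for interleukin 17, had the largest rise: it went from 5.92 to 6.85 in control vehicle arrays to 8.62 to 9.11 in control DNFB arrays, a difference of 2.23 ± 0.15 (limma adjusted p 2.96e-10), and it rose by 1.47 ± 0.18 in NICD mice. Il17rd, an inhibitory relative, fell by 1.40 ± 0.15, and Il10rb fell by 1.03 ± 0.11. Of the 3 C/EBP genes in the list, Cebpb rose by 0.38 ± 0.12 in control mice (limma adjusted p 0.0143), whereas Cebpa (-0.22 ± 0.12, limma adjusted p 0.144) and Cebpd (-0.09 ± 0.13, limma adjusted p 0.574) did not pass.

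Outside the 8 members, the genes most like each member were found by the root mean square difference of their log2 profiles over the 20 arrays, each set to 0 at its control vehicle mean. For Csta3 they were Krt16 (0.66), Tnc (0.68) and Slc7a11 (0.70), and for Stfa1 Tnc (0.88), Slc7a11 (0.93) and Krt16 (0.99). For Stfa3 they were Tnc (0.60), 2610528A11Rik (0.73) and Krt6a (0.78). Outside the members, S100a8 was closest to Tnc (0.56), 2610528A11Rik (0.56) and Sprr1a (0.57). Defb14, likewise, was closest to Sprr1a (0.75), Mmp3 (0.76) and 2610528A11Rik (0.78). Among the members themselves, Stfa3 and S100a8 were the closest pair, at 0.38, closer than either was to any gene outside the group. Defb14 was closer to S100a8 (0.58) and Stfa3 (0.61), and Stfa1 to Csta3 (0.72), Stfa3 (0.74) and S100a8 (0.87), than to any gene outside it. The reverse held for Csta3, whose nearest member was Stfa3 (0.71), and for S100a9 and Slpi (0.72 from each other). It also held for Lcn2, whose nearest member was Slpi (1.68). The partners S100a8 and S100a9 were 0.94 apart. Outside the group, S100a9 lay nearest to Chil1 (0.49), Gsta4 (0.60) and Ptgs2 (0.61), and Slpi to Cd44 (0.48), Gsta4 (0.56) and Clec4d (0.60). Lcn2, with its small change, lay nearest to Fhl2 (0.39), Zfp384 (0.39) and Tnfaip1 (0.40). The measure includes the size of the DNFB rise, so genes with rises of like size lie close. Nearness therefore does not show a shared order of arrays within a group.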

How the data were processed

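RNA (1 ng) was amplified with the Affymetrix WT Pico kit and hybridised to 20 arrays, per the labels' protocols. The deposited log2 values were made by the authors with RMA in Affymetrix Expression Console, per the submitters' processing notes; options are not given in the sources used here. Of 41345 probe sets, 23521 had 1 symbol in the platform annotation, 1814 several and 16010 none. Those with 1 symbol and a value above the array median on at least 4 arrays (14886, for 14178 genes) were fitted with limma 3.58.1 in R 4.3.3, all 4 groups in 1 model without a replicate block, and the procedure was tested on simulated data. Groups came from the labels; the number of arrays limits the precision. Alternatives were other filters, scalings, variance models, probe sets, array weights, a replicate block and leaving out each array. The members and gene lists were chosen with earlier results of these data known. From each list the text names up to 4 genes past the threshold with the largest DNFB change in control mice, defining markers of neutrophils, keratinocytes and endothelium, and for each member the 3 genes most like it. Tlr4, the C/EBP genes, Pglyrp1, Krt15, Ctss, Klk7, Ctsl, Pdgfra between genotypes, and other genes at background were named after their values were seen. Krt5 shares its probe set with another gene and was not read. Promoters were aligned with Biopython 1.88.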

Additional observations from a re-analysis of the deposited data

How the results depend on the processing

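The 8 members passed as higher with DNFB in control mice under every alternative run, and in NICD mice 7 or 8 did, with Lcn2 the one that failed. The count of 5 members lower in NICD than control DNFB arrays was 2 after centring (1 lower and 1 higher), 3 after quantile normalization, and 1 to 7 when single arrays were left out; it was 1 without NICD DNFB replicate 1. In vehicle ears the count of 0 was 1 after centring and 0 to 1 when single arrays were left out, with Lcn2 passing without control vehicle replicate 3 or 4 or NICD vehicle replicate 3. The difference of the DNFB effects passed for 0 members throughout. Signs turned only for differences that did not pass. In vehicle ears, NICD minus control was 0.13 (centred) and 0.16 (quantile) for S100a9, 0.03 (centred) for Defb14, and 0.15 (centred) and 0.02 (quantile) for Slpi. With single arrays left out it ran from -0.13 to 0.53 for Stfa1, -0.05 to 0.11 for S100a8 and -0.32 to 0.03 for Slpi, and the difference of the DNFB effects ran from -0.31 to 0.09 for Lcn2. The causes were not tested.

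With the replicate number as a block the counts were 8, 8, 5, 0 and 0, as without the block. Same-numbered arrays of a genotype correlated at 0.042 to 0.269 in deviations from their group means, and other pairs at -0.173 to 0.176. All 10 same-numbered pairs were above 0 and 13 of 20 arrays correlated best with their own number, a hint of pairing from the data. The numbers were not taken as pairs because 5 of the 10 pairs did not exceed 0.1, the limit set for every pair. Choosing the dimmest probe set of a gene was not run, since each member has 1. Signal over background limits the 6 members at background with vehicle, whose rises are lower bounds.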
